A study of Mus musculus with 12 samples.

Results

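Macrophages and dendritic cells are the resident phagocytes and antigen-presenting cells of the thymus, and 35 genes that mark them or work in them were followed across the 12 arrays of the series. The genes were taken by symbol from a list that was chosen with earlier results of these data known. They comprised 11 genes of the macrophage surface and lysosome and 6 that encode receptors for dying cells or the chains of complement C1q. A further 9 were of conventional dendritic cells, 1 of plasmacytoid dendritic cells, and 8 were factors, adaptors and effectors that several myeloid cells share. All 35 were measured, each by 1 probe set with a single gene symbol, of 19938 genes with such a probe set. The arrays were Affymetrix mouse Gene 1.0 ST arrays, and a value is the normalised signal of a probe set, an intensity on a linear scale with no unit.

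The tissue was thymic epithelium/stroma of 7-day-old pups of the FCG mouse model (core genotypes that separate gonad and sex chromosomes) on a C57BL/6J background, whose Sry, the gene that directs testis formation, is an autosomal transgene, so that XX and XY pups alike can have testes or ovaries. There were 2 arrays of XY gonadal males (XYM), 4 of XX gonadal males (XXM), 3 of XY gonadal females (XYF) and 3 of XX gonadal females (XXF). Thus 6 male arrays stood against 6 female arrays and 5 XY arrays against 7 XX arrays, and no group received a treatment. The labels number the arrays 1 to 12, and they do not say whether each is a separate pup or a pool, so p-values measure the spread between arrays. The Y chromosome of XYM and XYF alike lacks Sry.

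In the thymus most developing T cells die, and macrophages take them up. Receptors such as MERTK, AXL and TIM-4 bind dying cells directly or through bridging proteins, and complement C1q, made largely by macrophages, also coats them. Conventional dendritic cells that carry XCR1 or SIRPA, and plasmacytoid dendritic cells, show self-antigens to thymocytes and thereby help to remove self-reactive cells and to form regulatory T cells.

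The arrays were alike in scale, with median signals of 328 to 346, and any pair correlated at 0.961 to 0.980 over all probe sets on the log2 scale. The labels held, since Xist read 40.0 to 79.9 on XY arrays and 8505 to 9884 on XX arrays, and Sry read 2524 to 2836 on male arrays and 416 to 565 on female arrays. All 13 cortical epithelium markers, 10 of 13 medullary epithelium markers and all 12 endothelial markers lay above the low-level reference described next. So did all 12 fibroblast and pericyte markers, among them Thy1, whose probe set is also counted as a thymocyte marker. All 18 thymocyte markers measured did so as well, although thymocytes had been washed out of the tissue repeatedly. Their summed signal was 54795 to 56618 on XY arrays and 57385 to 62788 on XX arrays, without overlap. Taken singly, 1 of the 18 (Rag2) had an unadjusted p under 0.05 for XY minus XX in limma, as did 2.55% of all probe sets. After adjustment 0 of the 18 did.

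Because an intensity has no true zero, each member was set against probe sets of olfactory receptors, a large family with little known use in the thymus. The 95th percentile of 1035 such probe sets was 309.5, and 24 of the 35 members had a mean signal above it, 18 of them on every array. All 6 genes of dying cell uptake and C1q were above it, as were 7 of 11 macrophage genes, 5 of 9 conventional dendritic cell genes and 6 of 8 shared myeloid genes. The members below it by mean signal were Cd14, Fcgr1, Fcgr3, Cx3cr1, Itgax, Clec9a, Batf3, Irf4, Siglech, Spi1 and Aif1. Siglech was the only gene listed for plasmacytoid dendritic cells, so the label of that group was not borne out by the signal, and Bst1 (CD157), which stands among the shared genes, is not specific to those cells. A stricter reference, the 99th percentile of 459, left 14 members above it, and a milder one, set at 172 in the same way from 170 probe sets of vomeronasal receptors, left 32. A signal above 309.5 does not by itself mark a gene as present. Sry, which the gonadal females lack, read 416 to 565 on female arrays. Myeloid members such as Itgam, Irf8 and Fcer1g are shared with other blood cells, of whose markers 3 of 14 for monocytes, neutrophils and mast cells and 5 of 9 for B cells lay above 309.5. Several members, among them Axl, Mertk, Sirpa, Cebpb, Ctsb and Lgals3, are also used by epithelial or stromal cells. In RNA of a whole tissue, fewer cells of a type and less RNA per cell cannot be told apart.

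**Figure D1:**
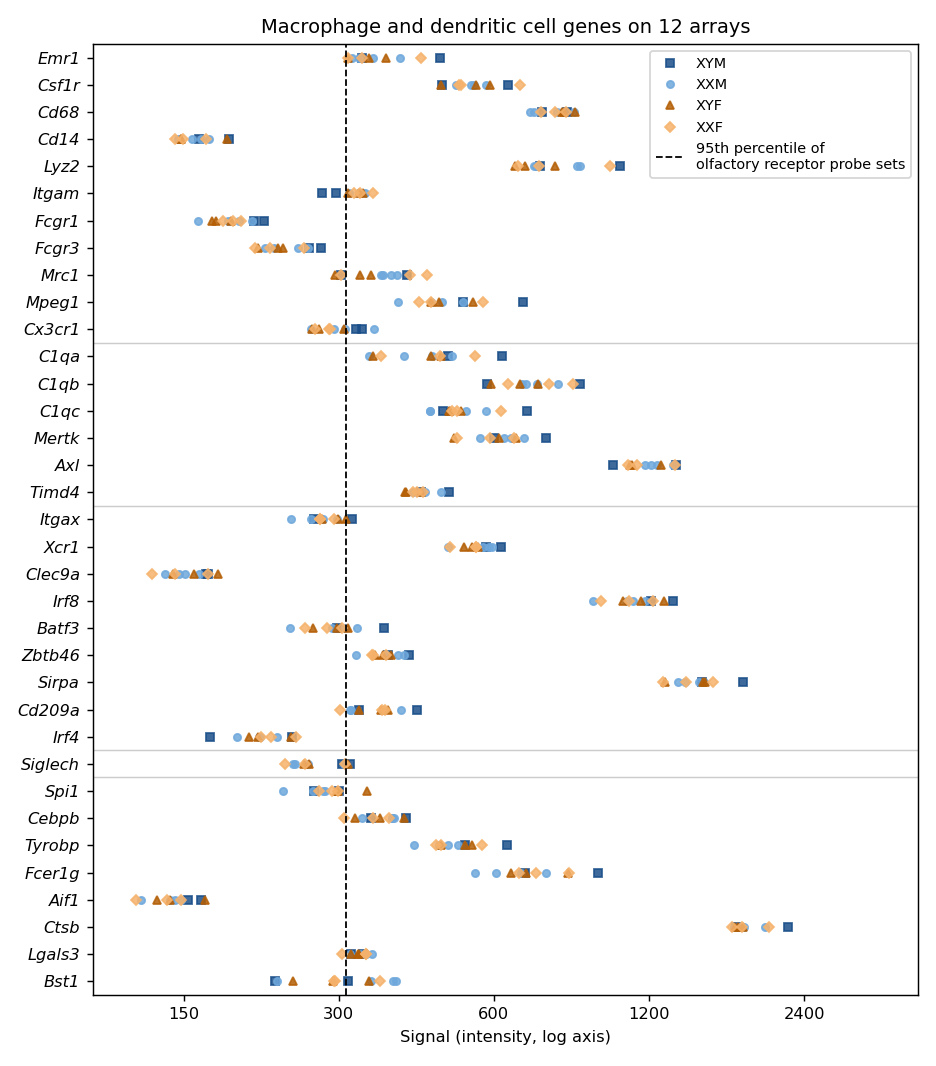
Signal of each of the 35 genes on each of the 12 arrays (log axis), with genotype by colour and shape and the 95th percentile of the olfactory receptor probe sets (309.5) as a dashed line. Rules divide the groups of genes in the order macrophage, dying cell uptake and C1q, conventional dendritic cell, plasmacytoid dendritic cell and shared, and 24 genes have a mean to the right of the dashed line.

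Among the genes of the macrophage surface, Emr1 (current symbol Adgre1) encodes F4/80, the classical marker of mouse tissue macrophages. Its signal was 471 and 333 on the XYM arrays, 395, 328, 318 and 350.1 on the XXM arrays, 370.2, 312 and 343 on the XYF arrays, and 433, 333 and 313 on the XXF arrays. The 4 highest values belonged to arrays 1 to 4, 1 of each genotype, and the genotypes overlapped. Csf1r encodes the receptor through which CSF1 and IL-34 keep macrophages alive. Its signal was 639.9 and 476 on the XYM arrays, 580.1, 506, 541 and 548 on the XXM arrays, 555, 474 and 590.2 on the XYF arrays, and 673, 513 and 517 on the XXF arrays. The highest array was XXF array 3 and the lowest XYF array 8, both female. Lyz2 encodes lysozyme M of phagocytes. It read 1053 and 736 on the XYM arrays, 883, 871, 723 and 719 on the XXM arrays, 789, 660.1 and 689 on the XYF arrays, and 1008, 669 and 733 on the XXF arrays. XYM array 1 and XXF array 3 stood above the other 10.

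Mpeg1 encodes perforin-2, a pore-forming protein of phagocytes. Its signal was 683 and 522 on the XYM arrays, 523, 454, 476 and 391 on the XXM arrays, 547, 469 and 452 on the XYF arrays, and 572, 453 and 429.9 on the XXF arrays. Arrays 1 to 4 again held the 4 highest values, with XYM array 1 on top. Itgam encodes CD11b, the integrin alpha chain of complement receptor 3. Its signal was 296 and 278 on the XYM arrays, 338, 329, 329 and 314 on the XXM arrays, 334, 313 and 328 on the XYF arrays, and 349, 321 and 329.9 on the XXF arrays. Both XYM arrays lay below the other 10, whereas males as a whole overlapped with females and XY with XX. Of the remaining genes of this group above the reference, Cd68, a glycoprotein of late endosomes and lysosomes, ranged over 704 to 863 and the mannose receptor gene Mrc1 over 295 to 445.

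The other macrophage genes had mean signals below the reference, so that their values are given for completeness. Fcgr1 encodes the high-affinity IgG receptor CD64. It read 205 and 215 on the XYM arrays, 159.9, 183, 192 and 204 on the XXM arrays, 173, 169.9 and 185 on the XYF arrays, and 179, 187 and 194 on the XXF arrays. The XYM arrays held the 2 highest values, narrowly. Fcgr3 encodes a low-affinity IgG receptor. It read 277 and 263 on the XYM arrays, 216, 225, 261 and 250.1 on the XXM arrays, 234, 209 and 229 on the XYF arrays, and 257, 221 and 206 on the XXF arrays. The 4 highest values came from XYM, XXM and XXF, and the sexes overlapped. Cx3cr1 encodes the fractalkine receptor of resident macrophages. It read 324 and 333 on the XYM arrays, 265, 294, 309 and 351 on the XXM arrays, 266, 307 and 275 on the XYF arrays, and 270.1, 288 and 287 on the XXF arrays. XXM held both the highest and the lowest value. Cd14, a co-receptor for lipopolysaccharide, ranged over 144 to 184.

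In the group of dying cell uptake and C1q, the 3 C1q chains are encoded by neighbouring genes. For C1qa the signal was 623 and 488 on the XYM arrays, 497, 402, 344 and 456 on the XXM arrays, 452, 349 and 473 on the XYF arrays, and 551, 363 and 472 on the XXF arrays. Arrays 5 to 8 held its 4 lowest values and XYM array 1 its highest. C1qb gave 881 and 581 on the XYM arrays, 799, 729, 681 and 692 on the XXM arrays, 675, 730.3 and 591 on the XYF arrays, and 853, 767 and 639.8 on the XXF arrays. The highest and the lowest value were both from XYM. C1qc gave 696 and 478 on the XYM arrays, 580.3, 451, 451 and 529 on the XXM arrays, 518, 494 and 492 on the XYF arrays, and 619, 498 and 508 on the XXF arrays. Array 1 and array 3, an XYM and an XXF array, were highest, and the other 10 lay between 451 and 580.3.

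Mertk encodes the receptor tyrosine kinase that binds dying cells through GAS6 and protein S. Its signal was 759 and 600.3 on the XYM arrays, 628, 565, 686 and 649 on the XXM arrays, 662, 503 and 614 on the XYF arrays, and 657, 508 and 589 on the XXF arrays. The male range of 565 to 759 and the female range of 503 to 662 overlapped. Timd4 encodes TIM-4, which binds phosphatidylserine on dying cells. It read 489.9 and 434 on the XYM arrays, 442, 418, 474 and 432 on the XXM arrays, 434, 403 and 406 on the XYF arrays, and 437, 418 and 426 on the XXF arrays. Apart from XYM array 1 and XXM array 6, all arrays fell between 403 and 442. Axl, a relative of Mertk, ranged over 1022 to 1352.

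Promoter windows show the sequence next to which some of these genes start. A window runs from 250 bases before to 50 bases after the start of a RefSeq gene model on assembly GRCm38.p6, and 26 of the 35 members had 1 or more; Emr1, Csf1r, Cd14, C1qa, Sirpa, Spi1, Tyrobp, Ctsb and Bst1 had none. The windows were searched on both strands for GAGGAA, letters held by many sites of PU.1, the myeloid factor encoded by the member Spi1, and no other motif was searched. The letters occurred in the windows of 12 members (46.2%), counted by gene, against 28.3% of 32851 windows of all genes, counted by window. These shares thus differ in unit, and they are a description that says nothing of binding. C1qb (chr4:136886151-136886450 on the minus strand) and C1qc (chr4:136892865-136893164 on the minus strand) are shown because they are neighbours read from one strand whose mean signal was higher on arrays 1 to 4, with overlap. Mpeg1 (chr19:12460520-12460819 on the plus strand) and Fcer1g (chr1:171234300-171234599 on the minus strand) are shown because arrays 1 to 4 did not overlap with the others, and Siglech (chr7:55767934-55768233 on the plus strand) because arrays 9 to 12 did not. Each is printed 5′ to 3′ on the strand of its gene, with GAGGAA or its reverse complement in capitals.
C1qb: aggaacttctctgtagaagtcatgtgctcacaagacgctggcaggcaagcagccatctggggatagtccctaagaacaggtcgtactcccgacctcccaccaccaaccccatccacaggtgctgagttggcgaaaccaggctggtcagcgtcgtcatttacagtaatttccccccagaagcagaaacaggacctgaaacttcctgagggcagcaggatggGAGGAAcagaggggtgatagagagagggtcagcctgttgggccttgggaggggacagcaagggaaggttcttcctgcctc
C1qc: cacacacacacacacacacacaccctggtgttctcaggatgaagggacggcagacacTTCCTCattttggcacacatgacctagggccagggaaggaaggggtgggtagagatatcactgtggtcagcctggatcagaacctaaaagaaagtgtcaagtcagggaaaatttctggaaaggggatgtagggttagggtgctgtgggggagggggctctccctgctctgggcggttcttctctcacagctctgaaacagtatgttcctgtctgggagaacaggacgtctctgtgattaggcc
Mpeg1: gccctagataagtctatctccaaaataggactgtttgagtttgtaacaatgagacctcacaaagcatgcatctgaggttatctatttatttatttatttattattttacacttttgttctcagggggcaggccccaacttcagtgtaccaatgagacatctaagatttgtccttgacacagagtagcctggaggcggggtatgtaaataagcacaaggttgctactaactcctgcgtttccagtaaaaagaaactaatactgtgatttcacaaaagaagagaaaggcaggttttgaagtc
Fcer1g: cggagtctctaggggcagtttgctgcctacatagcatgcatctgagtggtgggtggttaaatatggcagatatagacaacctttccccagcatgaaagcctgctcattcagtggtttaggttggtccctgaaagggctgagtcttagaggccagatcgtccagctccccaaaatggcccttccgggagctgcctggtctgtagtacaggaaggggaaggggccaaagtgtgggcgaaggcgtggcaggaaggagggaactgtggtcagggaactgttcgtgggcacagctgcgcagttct
Siglech: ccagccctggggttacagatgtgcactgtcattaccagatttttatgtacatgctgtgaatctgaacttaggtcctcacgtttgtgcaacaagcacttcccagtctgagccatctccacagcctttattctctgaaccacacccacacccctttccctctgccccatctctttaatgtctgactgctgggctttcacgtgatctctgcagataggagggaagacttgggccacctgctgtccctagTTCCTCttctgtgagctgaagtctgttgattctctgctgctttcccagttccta
Counted from the annotated start, the capitals begin at position -30 in C1qb, -193 in C1qc and -4 in Siglech, while the windows of Mpeg1 and Fcer1g do not hold these letters on either strand.

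Among the genes of conventional dendritic cells, Xcr1 encodes the chemokine receptor that marks the cross-presenting subset. Its signal was 580.0 and 618 on the XYM arrays, 489, 587, 572 and 596 on the XXM arrays, 544, 559.7 and 526 on the XYF arrays, and 493, 555 and 554 on the XXF arrays. The 2 lowest values came from XXM array 2 and XXF array 3. Irf8 encodes a transcription factor that this subset needs, and B cells use it too. It read 1335 and 1213 on the XYM arrays, 1088, 1178, 933 and 1117 on the XXM arrays, 1157, 1066 and 1283 on the XYF arrays, and 1219, 968 and 1096 on the XXF arrays. XYM array 1 and XYF array 12 were highest, and XX arrays reached 1219. Zbtb46 encodes a transcription factor of the conventional dendritic cell lineage. It read 373 and 410.3 on the XYM arrays, 324, 390.2, 402 and 371 on the XXM arrays, 365, 379 and 353 on the XYF arrays, and 348, 349 and 371 on the XXF arrays. XYM array 9 was highest and XXM array 2 lowest, and XX arrays overlapped with XY arrays.

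Itgax encodes CD11c. Its signal, below the reference by mean, was 318 and 268 on the XYM arrays, 279, 297, 242 and 265 on the XXM arrays, 299, 278 and 310.4 on the XYF arrays, and 294, 276 and 276 on the XXF arrays. No genotype stood apart. Clec9a encodes DNGR-1, a receptor for the actin of dead cells on the cross-presenting subset. It was also below the reference and read 166 and 167 on the XYM arrays, 147, 161, 138 and 151 on the XXM arrays, 157, 143 and 175 on the XYF arrays, and 144, 130.2 and 167 on the XXF arrays. Its highest value was on XYF array 12 and its lowest on XXF array 7.

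Sirpa, which encodes an inhibitory receptor for CD47 on the other conventional subset and on macrophages, ranged over 1280.0 to 1823, with XYM array 1 highest. The lectin gene Cd209a ranged over 302 to 425. The transcription factor genes Batf3 and Irf4, both below the reference by mean, ranged over 241 to 367 and 169 to 248. XYM array 9 was the highest array for Batf3 and Cd209a and the lowest for Irf4. Siglech encodes a lectin of plasmacytoid dendritic cells. It read 304 and 315 on the XYM arrays, 247, 262, 244 and 307 on the XXM arrays, 257, 263 and 312 on the XYF arrays, and 258, 236 and 308 on the XXF arrays. The 4 arrays numbered 9 to 12 were highest, by a small margin over XYM array 1, and only 2 arrays exceeded the reference of 309.5 by more than 1, which leaves the gene near that level throughout.

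Of the shared myeloid genes, Tyrobp encodes DAP12 and Fcer1g the common gamma chain of Fc receptors, the adaptors through which many myeloid receptors signal. Tyrobp read 637 and 528 on the XYM arrays, 511, 470.5, 419 and 488 on the XXM arrays, 527, 474 and 544 on the XYF arrays, and 569.7, 463 and 473 on the XXF arrays. XYM array 1 was highest, followed by XXF array 3, and the lowest value was on XXM array 6. Fcer1g read 957 and 689.9 on the XYM arrays, 756, 605, 550.4 and 677 on the XXM arrays, 834, 647 and 694 on the XYF arrays, and 839, 723 and 671 on the XXF arrays. Arrays 1 to 4 lay between 756 and 957 and the other 8 between 550.4 and 723. Spi1, the gene of PU.1, was below the reference by mean. It read 300.3 and 269 on the XYM arrays, 282, 267, 234 and 279 on the XXM arrays, 297, 299 and 341 on the XYF arrays, and 299, 275 and 291 on the XXF arrays. XYF array 12 alone was above 309.5.

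Bst1 encodes CD157, an ectoenzyme of myeloid and stromal cells. It read 312 and 226 on the XYM arrays, 347, 383, 387 and 228 on the XXM arrays, 293, 344 and 245 on the XYF arrays, and 295, 361 and 294 on the XXF arrays. It had the widest spread over the numbered arrays, with 344 to 387 on arrays 5 to 8 and 226 to 294 on arrays 9 to 12. The cathepsin B gene Ctsb ranged over 1741 to 2229, the galectin-3 gene Lgals3 over 305 to 348, the transcription factor gene Cebpb over 307 to 405 and Aif1, which encodes IBA1 and was below the reference, over 121 to 165.

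**Figure D2:**
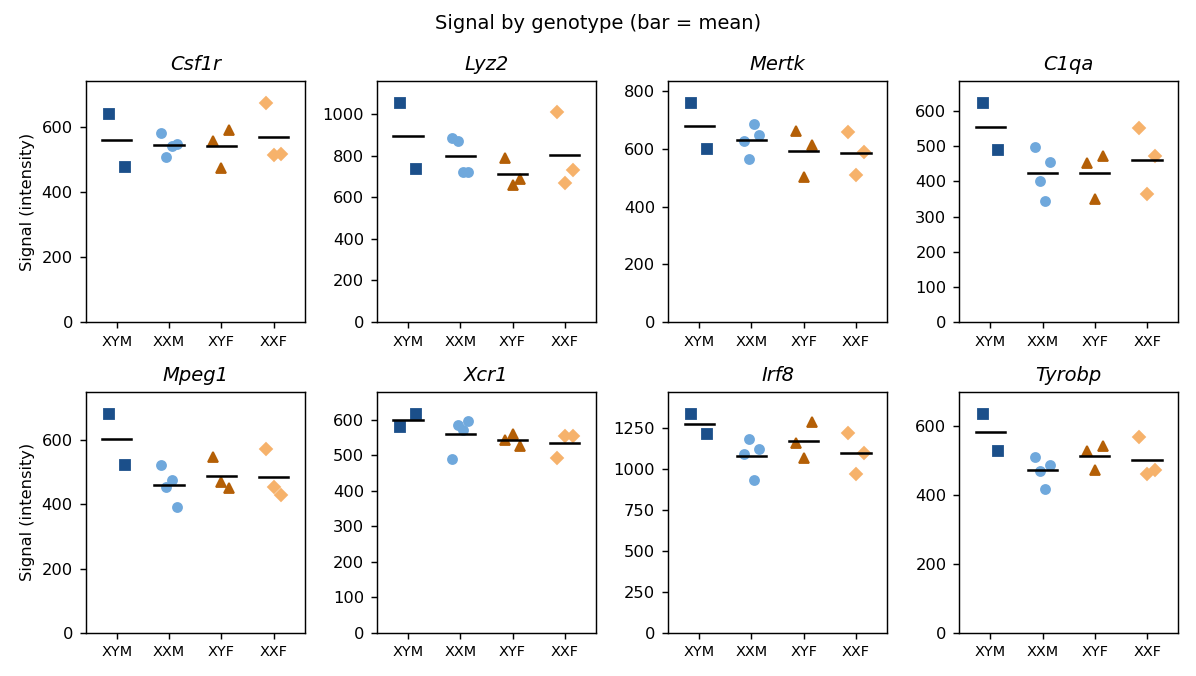
Signal (linear axis from 0) of 8 genes on each array, with XYM (2 arrays), XXM (4), XYF (3) and XXF (3) from left to right and the genotype mean as a black bar. Every pair of genotypes overlaps for Csf1r, Lyz2, Mertk and Mpeg1, and for no gene shown does a genotype stand apart from all the others. XYM array 1 is the highest point for Lyz2, Mertk, C1qa, Mpeg1, Irf8 and Tyrobp.

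None of the 35 genes passed an adjusted p of 0.05 for gonadal sex in limma, where 1 probe set of all 35556 did (0.00281%). The differences between males and females, the first question of an FCG design, ran from -0.13 to 0.17 on the log2 scale, with a median of 0.07 over the members and 0.00 over all probe sets, and 27 of 35 were above 0. The 95% confidence intervals of single genes reached down to -0.37 (Bst1) and up to 0.43 (Lyz2 and C1qa), so these arrays leave room for differences of that size. At an unadjusted p under 0.05, 1 member was higher in males (1.61% of all probe sets) and 0 were lower (1.41%). That member was Fcgr3, below the reference, with 249 ± 23.4 in males and 226 ± 18.8 in females (SD, n = 6 each), a difference of 0.17 (SE 0.0763, limma adjusted p = 0.985). Cx3cr1 averaged 313 ± 30.6 in males and 282 ± 15.1 in females, a difference of 0.16 (SE 0.0759, limma adjusted p = 0.985). For Itgam the values were 314 ± 23.0 in males and 329 ± 12.2 in females, a difference of -0.10 (SE 0.0530, limma adjusted p = 0.985), and for Spi1 they were 272 ± 22.1 in males and 300.4 ± 22.0 in females, a difference of -0.13 (SE 0.0706, limma adjusted p = 0.985). These were the 4 members with the lowest p. For no member did male and female arrays fall into ranges without overlap, as 0.0731% of all probe sets did.

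The count of members above 0 rested in part on a single library. Without XYM array 1 the median difference was 0.02 with 19 of 35 members above 0, and Fcgr3 differed by 0.15, against 0.17 with all arrays (limma adjusted p = 0.507). In that fit 1 member, Irf4, was under 0.05 unadjusted, as were 9.99% of all probe sets, with a lower signal in males (-0.24, limma adjusted p = 0.483). Each set of 4 arrays by number holds both sexes, and within arrays 1 to 4, 5 to 8 and 9 to 12 the median was 0.04, 0.05 and 0.03, with 27, 24 and 21 members above 0. Of these sets, arrays 5 to 8 hold no XYM, so their males are all XX while their females are XXF array 7 and XYF array 8. With these sets of arrays as a block in the fit, 7 members had an unadjusted p under 0.05, and so did 11.5% of all probe sets. They were Fcgr1, Mpeg1, Cx3cr1, Xcr1 and Batf3, higher in males, and Itgam and Spi1, lower in males, and the lowest adjusted p was 0.392. Beside the members, all 13 cortical epithelium markers were lower in males (median -0.08), with a summed signal of 41078 to 51363 in males and 44529 to 52686 in females, and all 12 interferon-stimulated genes were lower (median -0.14), with a summed signal of 8269 to 12202 in males and 9857 to 12591 in females. Of 9 B cell markers 7 were higher in males (median 0.11), with a summed signal of 3167 to 3518 in males and 3075 to 3309 in females. The part of these cells and genes in the differences between the sexes was not tested.

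For sex chromosome complement, 0 of 35 members passed an adjusted p of 0.05, where 13 probe sets (0.0366%) did. The differences of XY minus XX had a median of 0.06 over the members and 0.01 over all probe sets, and 26 of 35 were above 0. At an unadjusted p under 0.05, 0 members were higher in XY (1.26% of all probe sets) and 0 were lower (1.29%). The lowest p was that of Itgam, with 309.6 ± 22.9 in XY (SD, n = 5) and 330.1 ± 11.1 in XX (SD, n = 7), a difference of -0.11 (SE 0.0530, limma adjusted p = 1.00). Tyrobp averaged 542 ± 59.4 in XY and 485 ± 46.5 in XX, a difference of 0.17 (SE 0.0838, limma adjusted p = 1.00). Irf8 averaged 1211 ± 105 in XY and 1086 ± 103 in XX, a difference of 0.17 (SE 0.0848, limma adjusted p = 1.00). Mpeg1 averaged 534 ± 91.4 in XY and 471 ± 60.0 in XX, a difference of 0.20 (SE 0.108, limma adjusted p = 1.00). Intervals reached from -0.55 (Bst1) to 0.44 (Mpeg1). No member had XY and XX arrays without overlap (0.166% of all probe sets).

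Without XYM array 1 the median for chromosome complement was 0.04, with 21 of 35 members above 0. Mpeg1 then differed by 0.10 (limma adjusted p = 0.734), against 0.20 with all arrays, and Tyrobp by 0.10 (limma adjusted p = 0.683), against 0.17. In that fit Mrc1 (-0.27) and C1qb (-0.25) were under 0.05 unadjusted, both lower in XY, as were 6.43% of all probe sets in either direction. Within arrays 1 to 4, 5 to 8 and 9 to 12 the median with all arrays was 0.07, -0.02 and 0.03, with 23, 14 and 19 members above 0. Arrays 5 to 8 hold no XYM, and their only XY array is XYF array 8. Sex and chromosome complement are therefore mixed in the value for arrays 5 to 8. With the sets as a block, Itgam, Mpeg1 and Batf3 had an unadjusted p under 0.05, as did 6.90% of all probe sets, and the lowest adjusted p was 0.683. Other cell types moved beside the members in this contrast. All 18 thymocyte markers were lower in XY (median -0.10), all 13 medullary epithelium markers were higher (median 0.10, summed signal 8232 to 9603 in XY and 7771 to 8970.4 in XX), all 12 endothelial markers were higher (median 0.14, summed signal 11777 to 15594 in XY and 10600.4 to 13179 in XX) and all 12 interferon-stimulated genes were higher (median 0.24, summed signal 10167 to 12591 in XY and 8269 to 11809.5 in XX). Their part in the members' differences was not tested.

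**Figure D3:**
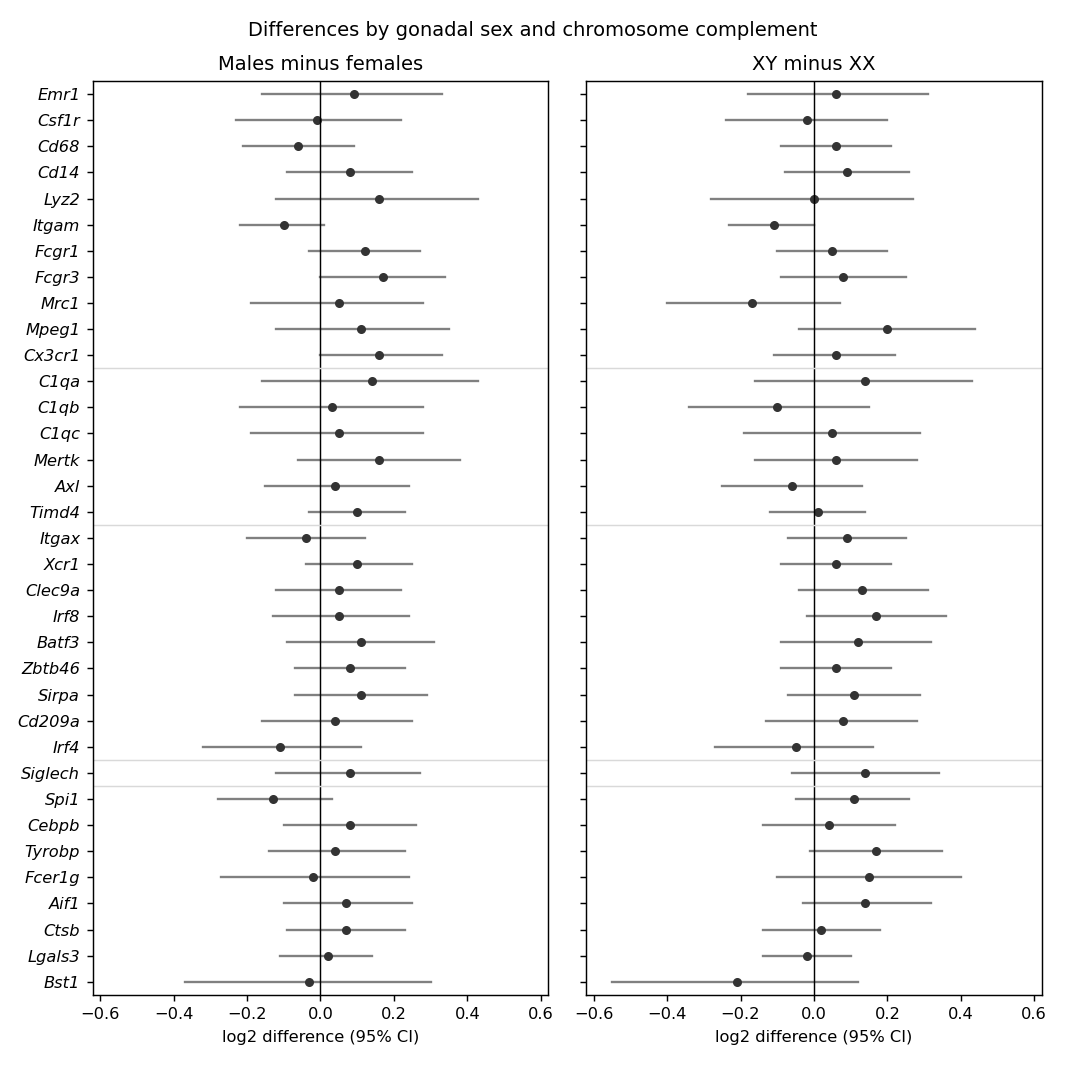
Log2 difference of each of the 35 genes between males and females (left) and between XY and XX (right), as points with 95% confidence intervals from limma and a line at 0. All 35 intervals by chromosome complement and all but that of Fcgr3 by sex include 0, and the medians are 0.07 and 0.06.

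The interaction asks whether the effect of the gonad differs between XY and XX pups. It passed an adjusted p of 0.05 for 0 of 35 members and for 0% of all probe sets, and an unadjusted p under 0.05 for 0 members, against 1.54% of all probe sets. The male minus female difference had a median of 0.13 over the members among XY pups and -0.01 among XX pups, and the interaction a median of 0.11. For Fcgr1 the interaction was 0.28 (SE 0.138, limma adjusted p = 1.00). C1qa averaged 556 ± 95.6 in XYM, 425 ± 66.2 in XXM, 425 ± 66.2 in XYF and 462 ± 94.3 in XXF (SD, n = 2, 4, 3 and 3), and its interaction was 0.50 (SE 0.270, limma adjusted p = 1.00). For Mpeg1 it was 0.36 (SE 0.216, limma adjusted p = 1.00), and for Fcer1g 0.38 (SE 0.230, limma adjusted p = 1.00). Without XYM array 1 the median over the members was 0.04, with 0.33 for C1qa (limma adjusted p = 0.789), 0.31 for Fcgr1 (limma adjusted p = 0.777), 0.17 for Mpeg1 (limma adjusted p = 0.839) and 0.14 for Fcer1g (limma adjusted p = 0.867). With the sets of arrays as a block, Itgam, Fcgr1 and Mpeg1 had an unadjusted p under 0.05, as did 6.40% of all probe sets. An F test over the 4 genotypes called 0 members after adjustment (0.0281% of all probe sets) and 0 at an unadjusted p under 0.05 (1.99%).

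XYM had the highest mean of the 4 genotypes for 24 of 35 members and the lowest for 3. Without array 1, XYM is a single array, which was highest for 17 of 35 and lowest for 13. These counts were not made over all probe sets. A mean of fewer arrays varies more and is more often an extreme, so the counts cannot be read as a trait of the genotype. Array 1 was noticed in an earlier look at the data, so its values are a description with no test. XYM array 1 by itself was the highest of the 12 arrays for 16 of 35 members (45.7%), against 4.50% of all probe sets, and lay above the median array for 32. These 16 comprised all 6 genes of dying cell uptake and C1q, the macrophage genes Emr1, Lyz2, Fcgr3 and Mpeg1, the dendritic cell genes Itgax, Irf8 and Sirpa, and Tyrobp, Fcer1g and Ctsb. The median difference of array 1 from the mean of the other 11 was 0.19 over the members and -0.01 over all probe sets, with 0.33 for dying cell uptake and C1q and 0.09 for the shared genes. The largest single differences were 0.52 for C1qa, 0.51 for Mpeg1 and 0.46 for both Lyz2 and Fcer1g. Endothelial markers (12 of 12 above the other arrays, median 0.15) and interferon-stimulated genes (12 of 12, median 0.22) were higher on this array too, and thymocyte markers were slightly lower (4 of 18 above, median -0.06). Among 23 further macrophage and dying cell uptake genes, array 1 was above the mean of the other 11 for 18 (median 0.12). It was the highest of all for 21.7%. Of the further dendritic cell genes 19 of 22 were above that mean (median 0.12). So were 11 of 13 medullary epithelium markers (median 0.11) and 9 of 9 B cell markers (median 0.09). Array 1 was the highest of all for 36.4%, 38.5% and 33.3% of these lists. Their part in the members' values on this array was not tested. XYM array 9, the other array of this genotype, was the highest for 8 members (Cd14, Fcgr1, Xcr1, Batf3, Zbtb46, Cd209a, Siglech and Cebpb) and the lowest for 5.

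**Figure D4:**
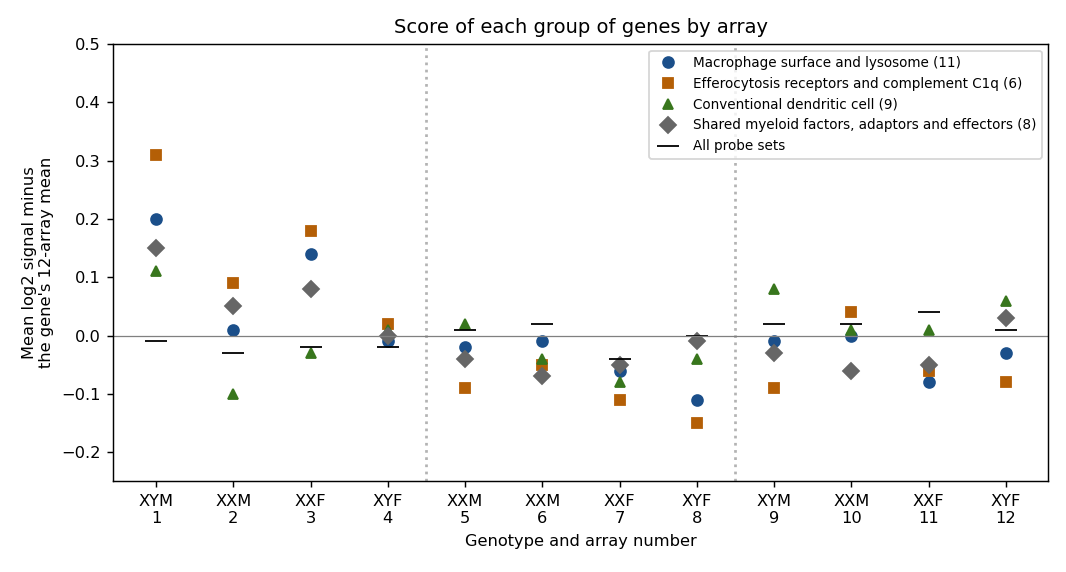
Mean log2 signal of 4 groups of genes on each array, relative to each gene's mean over the 12 arrays, in the order of array number with the genotype named below and dotted lines between arrays 4 and 5 and between 8 and 9. Dying cell uptake and C1q genes (squares) reach 0.31 on XYM array 1 and -0.15 on XYF array 8, while conventional dendritic cell genes (triangles) stay between -0.10 and 0.11 and the mean of all probe sets (dashes) between -0.04 and 0.04.

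The arrays were last compared by their numbers. These are only labels, and what arrays 1 to 4, 5 to 8 and 9 to 12 have in common is not stated. This division was noticed in an earlier look at the same arrays, and its values are therefore given with no test. Arrays 1 to 4, 1 of each genotype, had a median log2 difference from the other 8 of 0.11 over the members, with 26 of 35 above 0, against -0.02 over all probe sets. The difference was unequal among the groups of genes. It was 0.22 for dying cell uptake and C1q, with 6 of 6 above 0, 0.12 for the macrophage genes (8 of 11), 0.07 for the shared genes (7 of 8) and 0.00 for conventional dendritic cell genes (5 of 9). Fcer1g (0.37), Lyz2 (0.36), Mpeg1 (0.35), C1qa (0.35) and Emr1 (0.34) were the highest, and Batf3 (-0.23), Cd209a (-0.21), Cebpb (-0.14), Xcr1 (-0.12) and Cx3cr1 (-0.12) the lowest. Outside the members, 18 of 22 further dendritic cell genes were above 0 (median 0.13). So were 17 of 23 further macrophage and dying cell uptake genes (median 0.09). The lower value of the dendritic cell members was thus not seen in the further dendritic cell list, which is not specific to these cells. Its Cd83 was also counted among the cortical epithelium markers and its Bst2 among the interferon-stimulated genes.

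Emr1, Mpeg1 and Fcer1g were higher on arrays 1 to 4 than on any other array, 3 of 35 members against 2.50% of all probe sets, and 0 members were lower on them without overlap (7.12%). On arrays 5 to 8, which are 2 of XXM, 1 of XYF and 1 of XXF and hold no XYM, the median was -0.08 with 11 of 35 above 0. C1qa (-0.45) and Sirpa (-0.22) were lower there without overlap (1.53% of all probe sets) and 0 members were higher (0.908%). On arrays 9 to 12, 1 of each genotype, the median was -0.00 with 17 above 0. Siglech (0.26) was higher there without overlap (4.36%) and 0 members were lower (5.82%). The gap was narrow for Mpeg1, which read 523 on the lowest of arrays 1 to 4 and 522 on XYM array 9. After a second quantile normalisation Emr1 and C1qa stayed without overlap, whereas Mpeg1, Fcer1g, Sirpa and Siglech did not. C1qb (-0.29) and Mrc1 (-0.28) were low on arrays 9 to 12 while C1qa (0.11) was not. Bst1 differed most between sets, with mean signals of 312, 369 and 248 on arrays 1 to 4, 5 to 8 and 9 to 12.

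Without XYM array 1, arrays 1 to 4 still had a median of 0.08 with 24 of 35 above 0. Emr1, Mpeg1 and Fcer1g stayed without overlap and Itgam joined them, against 3.97% of all probe sets, while Cx3cr1 and Batf3 were then lower on these arrays without overlap, against 12.3%. Genes of other cells differed by array number as well. On arrays 1 to 4 all 12 endothelial markers (median 0.18, summed signal 11396 to 15594 on arrays 1 to 4, 10600.4 to 11777 on arrays 5 to 8 and 11719 to 12563 on arrays 9 to 12), all 12 interferon-stimulated genes (median 0.20, summed signal 10281 to 12591, 8269 to 11575 and 8855 to 11435 in the same order) and 12 of 13 cortical epithelium markers (median 0.14) were higher than on the rest. The 18 thymocyte markers had a median of -0.01, with a summed signal of 54795 to 61329, 56618 to 59360.2 and 55328 to 62788. All 5 erythroid markers measured were lower (median -0.24), and 0 of 5 were above the low-level reference. The part of these cells in the members' differences was not tested.

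**Figure D5:**
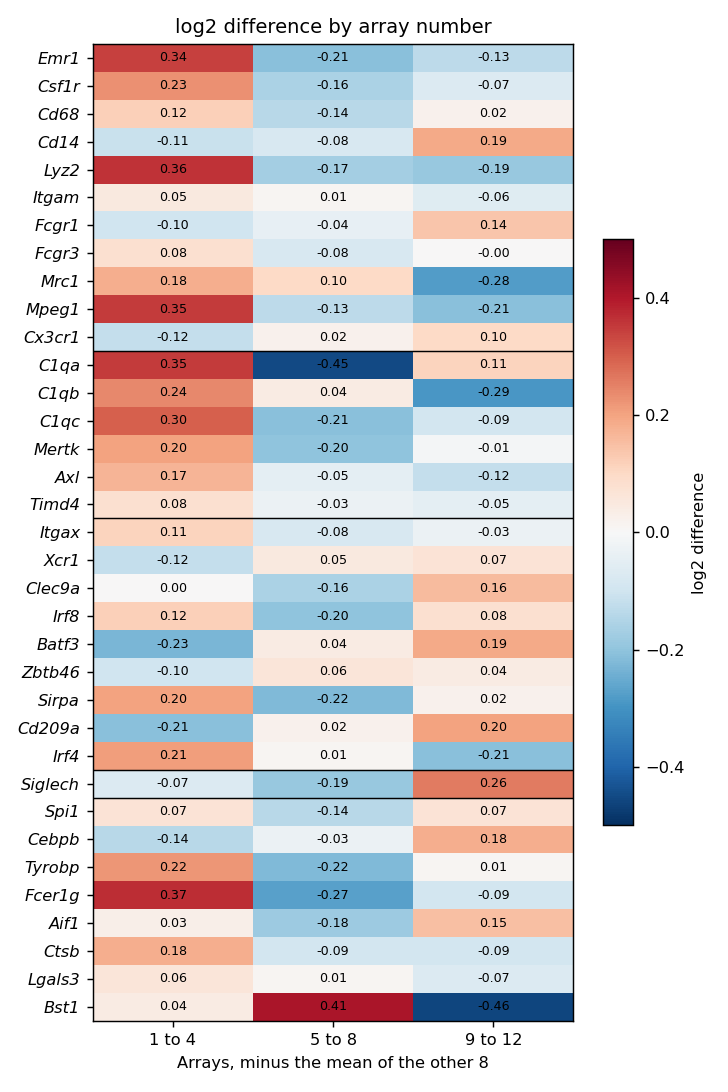
Log2 difference of each of the 35 genes between the 4 arrays of a numbered set and the other 8 arrays, written in each cell and coloured from blue (lower) to red (higher), with rules between the groups of genes. The 6 genes of dying cell uptake and C1q are all above 0 on arrays 1 to 4 (median 0.22), and Bst1 runs from 0.41 on arrays 5 to 8 to -0.46 on arrays 9 to 12.

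Lists of further genes of these cells were fitted in the same way. Of 23 more macrophage and dying cell uptake genes, 22 more dendritic cell genes and 12 genes of ligands that act on myeloid receptors, 0 passed an adjusted p of 0.05 for sex or for chromosome complement. Their medians were 0.03, -0.02 and -0.05 for males minus females and 0.01, 0.06 and 0.09 for XY minus XX. In the macrophage list the lowest p for sex belonged to Ctss (cathepsin S, 0.14), Stab2 (0.13) and Ms4a7 (0.13), and for chromosome complement to Hmox1 (heme oxygenase 1), Cybb (an X-linked subunit of the phagocyte oxidase, 0.18) and Ctss (0.17). Hmox1 averaged 276 ± 20.4 in XY and 308 ± 27.4 in XX, a difference of -0.17 (SE 0.0765, limma adjusted p = 1.00).

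In the dendritic cell list the lowest p for sex belonged to Itgae (CD103, -0.14), Cd300c (0.17) and the double-stranded RNA receptor gene Tlr3 (-0.15), and for chromosome complement to Flt3, Ccl22 and Ccr9. Flt3, the receptor for the growth factor on which dendritic cells depend, averaged 288 ± 22.5 in XY and 248 ± 13.6 in XX, a difference of 0.22 (SE 0.0601, limma adjusted p = 1.00), and its mean signal of 264 lay below the reference. Ccl22, a chemokine of mature dendritic cells, averaged 594 ± 77.6 in XY and 497 ± 63.9 in XX, a difference of 0.27 (SE 0.0981, limma adjusted p = 1.00). Ccr9, a chemokine receptor that thymocytes also carry, averaged 4405 ± 453 in XY and 5076 ± 428 in XX, a difference of -0.22 (SE 0.0840, limma adjusted p = 1.00), in the same direction as the thymocyte markers.

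The ligands are made largely by epithelium and stroma. Lgals9 (-0.15), Csf1 (-0.07) and Ccl25 (-0.07) had the lowest p for sex, and Cx3cl1, Csf1 and Ccl2 (0.14) for chromosome complement. Cx3cl1, the fractalkine bound by CX3CR1, averaged 494 ± 38.6 in XY and 426 ± 31.0 in XX, a difference of 0.20 (SE 0.0713, limma adjusted p = 1.00). Csf1 averaged 722 ± 30.6 in XY and 657 ± 53.9 in XX, a difference of 0.13 (SE 0.0672, limma adjusted p = 1.00), and Il34, the other ligand of CSF1R, differed by 0.10. Gas6 and Pros1, whose products link MERTK and AXL to dying cells, differed by 0.10 and -0.06. The difference was 0.03 for Flt3l, the ligand of FLT3, and 0.10 for Xcl1, the ligand of XCR1, with limma adjusted p = 1.00 for Il34, Gas6, Pros1, Flt3l and Xcl1 alike.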

How the data were processed

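RNA of day 7 thymic epithelium/stroma was hybridised to 12 arrays. Per the labels and the study's methods, the authors deposited 1 table of probe set intensity, normalised on a linear scale. The methods name RMA with quantile normalisation, while PLIER and Affymetrix Expression Console 1.1 stand in the processing notes of the submitters, and which of them made the table is not settled here. The values were taken to log2 and fitted across all 35556 probe sets in limma 3.58.1 (R 4.3.3) with a mean for each genotype, averaged over chromosome complement for sex and over sex for chromosome complement, with Benjamini-Hochberg adjustment. The fit was tested on simulated data. The platform annotation gave 1 symbol to 21789 probe sets, several to 1621 and none to 12146. Only probe sets with 1 symbol were named. Arrays give no counts, so their number limits the precision. Every member was accounted for, and values on every array were given for the members with the 4 lowest p in each contrast, the 4 widest differences between array sets and defining genes of each group. Members and lists were chosen with earlier results of these data known. Alternatives were a second quantile normalisation, an offset of 16, filters, a block for array sets, array weights, the methods' two-way ANOVA and leaving out each array.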

Additional observations from a re-analysis of the deposited data

Results flagged for a closer look

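In groups of 5 to 7 arrays, pairs of a member and a group (males, females, XY or XX) were set against Dixon's 95% limit. Of 140 pairs, 9 held an array further from the others than it allows, and chance alone gives about 1 in 20. Each array is counted by sex and again by chromosome complement, and many members were high on the same arrays. The pairs are therefore not independent trials. XXF array 3 was the highest female for Lyz2 (1008, next 789), C1qc (619, next 518) and Ctsb (2048, next 1827). XYM array 1 was the highest XY array for C1qc (696, next 518) and Ctsb (2229, next 1827), and the highest male for Sirpa (1823, next 1535). For Timd4, XXM array 6 was the highest XX array (474, next 442), and for Spi1, below the low-level reference by mean, XYF array 12 was the highest female (341, next 299). Xcr1 was lowest among males on XXM array 2 (489, next 572). Of the 9, 6 fell on XYM array 1 or XXF array 3.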

How the results depend on the processing

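Under 22 other settings, 12 of which left out 1 array each, 0 of 35 members passed an adjusted p of 0.05 for sex, chromosome complement or the interaction. The additive model has no interaction, the filter to probe sets above the median signal tested 21 members, and averaging the probe sets of a gene could not move members with 1 probe set each. The 4 members with the lowest p in each contrast kept their sign and side in all 254 of their values, but others turned. Without XYM array 1, 27 of 35 members kept their sign for sex, 30 for chromosome complement and 27 for the interaction, and without XYM array 9, 26 did so for the interaction. The lowest adjusted p was 0.392, 0.653 and 0.765 for the 3 contrasts, and at an unadjusted p under 0.05 there were 0 to 7, 0 to 3 and 0 to 4 members, against 1.61% to 11.5%, 1.96% to 6.90% and 1.12% to 6.40% of all probe sets, the methods' two-way ANOVA included. Leaving out 1 array gave member medians of 0.02 to 0.10 for sex, 0.04 to 0.10 for chromosome complement and 0.04 to 0.20 for the interaction (0.11 with all arrays), the last being 0.20 without XYM array 9. After a second quantile normalisation, 1 member (Emr1) was higher on arrays 1 to 4 without overlap (2.07% of all probe sets), 1 (C1qa) was lower on arrays 5 to 8 (1.63%), 0 were higher on arrays 9 to 12 (3.88%) and 1 (Bst1) was lower there (5.46%). Mpeg1, Fcer1g, Sirpa and Siglech no longer stood apart, and the cause was not tested. Without XYM array 1, chosen after seeing the data, 2 members (Cx3cr1 and Batf3) were lower on arrays 1 to 4, against 12.3% of all probe sets. The 99th percentile of the olfactory receptors left 14 members above it. No paired analysis was possible because the array numbers 1 to 12 are unique, so the groups share none. XYM has 2 arrays, which limits its mean and the interaction.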
